A study of Mus musculus with 6 samples.

Results

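The machinery that copies DNA was described through 42 genes in nephron progenitor cells of fetal mice whose mothers ate a control or a restricted diet. The genes were chosen by symbol, from the helicase that opens DNA to the enzymes that join the new strands and make deoxyribonucleotides, and were grouped into 10 complexes or steps. Earlier results of these data were known when they were chosen. All 42 were among the 25157 genes with a normalized count, of 45659 with a read count, in the deposited table.

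Replication begins at origins bound by the origin recognition complex, where Cdc6 and Cdt1 load the ring-shaped MCM2-7 helicase onto DNA. Firing of the origin adds Cdc45 and the GINS complex to that ring, after which polymerase alpha-primase starts each strand and polymerases delta and epsilon extend it, held by the PCNA clamp. Most of these genes are transcribed towards S phase under E2F transcription factors, and nephron progenitors of the fetal kidney must divide to renew themselves before they form nephrons.

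RNA was sequenced from GFP-positive cells sorted from embryonic kidneys at E18.5, with 3 libraries per diet. The embryos came from CD-1 females crossed with males that carry a Six2-driven Cre transgene, and all 6 libraries share the labelled genotype CD-1/ Six2 Cre tg/+, so controls and food-restricted samples both carry the transgene. Mothers received control food or restricted food for the whole of pregnancy; the sample labels give the restricted ration as 30% and the series text as 70% of daily calories, which the sources used here do not settle. The design text calls the libraries biological replicates, but neither litters nor embryo numbers are given for them, and p-values therefore cover only the variation among the 6 libraries. Fewer dividing cells and less RNA per cell cannot be told apart in such bulk samples.

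Total counts were 12338593, 10881013 and 10686582 in control replicates 1 to 3 and 6515127, 14188081 and 16763479 in food-restricted replicates 1 to 3. Food-restricted replicate 1 was the shallowest library and held the lowest food-restricted value of 19 of the 42 genes, against 8 for replicate 2 and 15 for replicate 3. Six2, which defines the sorted cells, stood at a normalized count of 4160.2 ± 191 in controls and 3989 ± 142 in food-restricted libraries (SD, n = 3 each), and 1 of 8 progenitor markers, Meox1, was lower in the limma test across all genes (adjusted p under 0.05). All 8 proximal tubule markers passed as lower, with summed levels of 544 to 565 CPM (counts scaled to a library total of 1000000) in controls and 307 to 318 CPM in food-restricted libraries. Of 8 stromal markers 4 passed as higher (259 to 263 and 296 to 338 CPM), as did 4 of 8 macrophage markers (20.5 to 22.4 and 35.2 to 39.4 CPM). Without food-restricted replicate 3 only 1 stromal marker passed, and without control replicate 1 or 2 or food-restricted replicate 1 or 2 the macrophage count was 2. The summed markers of endothelium, ureteric epithelium, erythroid cells and podocytes were at most 36.8 CPM in any library, with Hoxb7 and Podxl called lower. No tubular, stromal or macrophage marker was at 0 in any library. The part that these other cells had in the values of the replication genes was not tested.

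The replication genes were lower as a group and by small amounts. A normalized count is the number of reads of a gene divided by a size factor of its library. The 42 genes summed to 33885, 34582 and 33808 normalized counts in the controls and to 30533, 31420 and 31361 in the food-restricted libraries. All food-restricted sums lay below all control sums, and the means of 34092 ± 426 and 31105 ± 496 (SD, n = 3 each) differed by -8.76%. As CPM the sums were 2978, 2968 and 2951 CPM against 2662, 2802 and 2853 CPM, a difference of -6.51%, and did not overlap either. Gm42418, a transcript of the ribosomal RNA repeat that enters these totals, held 6.59% to 7.87% of the counts in controls; its share was 7.42%, 5.27% and 4.54% in food-restricted replicates 1 to 3. With Gm42418 left out of the totals, an alternative chosen after seeing the data, the sums were 3188, 3222 and 3185 CPM against 2876, 2958 and 2989 CPM, a difference of -8.05%, again without overlap. Whether RNA quality had a part in the values of single genes was not tested.

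Each gene was tested with limma on log2(normalized count + 1) over all 25157 genes and counted as called where its p, adjusted by Benjamini and Hochberg's method, was under 0.05. The test called 5 of the 42 genes lower (11.9%), namely Mcm3, Mcm5, Mcm6, Pola1 and Rrm1, where 2.5% of all genes tested and 5.37% of the 10060 genes with a mean normalized count of at least 100 were called lower. Because the genes were chosen with earlier results of these data known, such shares describe the group and do not test it. No replication gene was called higher by limma, by limma-voom or in the authors' deposited table, and 0 were higher at an unadjusted p under 0.05, while 2.24% of all genes were called higher. The share of all genes at that unadjusted p was not counted, so counts at it, here and by complex below, have no background beside them. The log2 fold change, food-restricted over control, was below 0 for 37 of the 42 genes, and its median was -0.10. The median over all genes tested was -0.0028, with 50.4% of them below 0, and among genes with a mean of at least 100 it was -0.005, with 51.2% below 0. In 15 of the 42 genes (35.7%) all food-restricted libraries lay below all controls and in 0 they lay above. This separation was found in 10.2% of all genes downwards and 9.48% upwards, and in 15.3% of the genes with a mean of at least 100 downwards. The authors' deposited table called 4 of the 42 genes, all lower, with Mcm5 at an adjusted p of 0.0531 there.

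**Figure D1:**
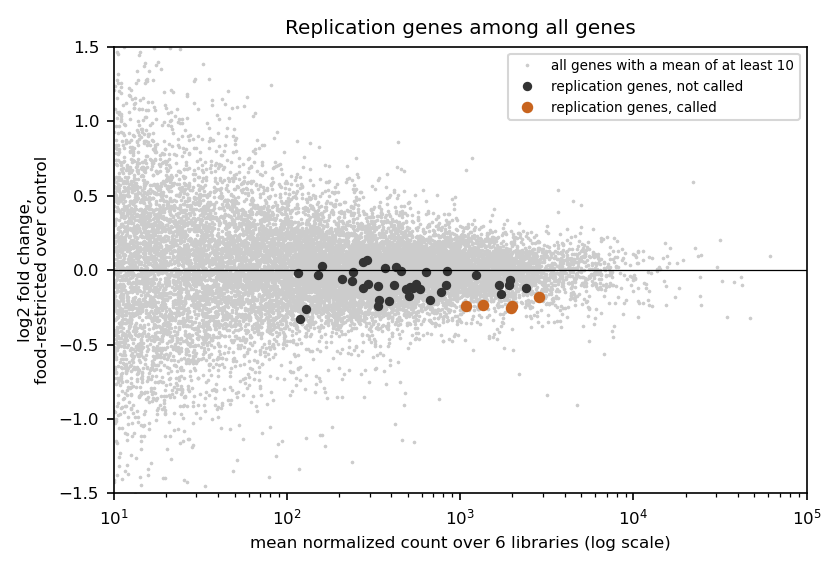
Log2 fold change, food-restricted over control, against the mean normalized count over 6 libraries (log scale) for all genes with a mean of at least 10 (light grey), the 37 replication genes that were not called (black) and the 5 that were called (orange); genes beyond 1.5 log2 units are not drawn. The replication genes have means from 116 to 2832 and mostly lie below 0, within the spread of other genes of like level.

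The count of called genes changed when single libraries were left out. It was 3 without control replicate 1, 1 without control replicate 2, 4 without control replicate 3, 3 without food-restricted replicate 1, 2 without replicate 2 and 5 without replicate 3. Over all 25157 genes, 630 were called lower with all libraries and 397, 401 and 415 without control replicates 1 to 3. Without food-restricted replicate 1, the shallowest library, that count rose to 752, and it was 444 and 324 without replicates 2 and 3. Mcm3 was called whichever library was left out. With all 6 libraries, limma-voom called Lig1 as well, at an adjusted p of 0.0385.

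The MCM2-7 helicase carried most of the called genes. Its 6 subunits form the ring that encircles DNA at origins and unwinds it at the fork, and 3 of them, Mcm3, Mcm5 and Mcm6, were called lower. Of all genes with a mean normalized count of at least 100, 5.37% were called lower. The called replication genes were highly counted, with control means from 1175 (Mcm5) to 3007 (Mcm6), although Mcm4 and Mcm7, at 1973 and 2508, were not called. Gins3, Rpa3 and Cdc6, at log2 fold changes of -0.33, -0.26 and -0.24 on control means of 133, 138 and 363, were not called either. Whether calls followed the count level was not tested. All 6 helicase log2 fold changes were below 0, with a median of -0.15. The summed normalized count of the ring was 12732, 12597 and 12247 in controls and 10656, 11552 and 11449 in food-restricted libraries, a difference of -10.4%. No food-restricted sum reached a control sum, and food-restricted replicate 1 was the lowest.

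Mcm3 (ENSMUSG00000041859, GRCm38 chr1:20802968-20820312, minus strand) had normalized counts of 2165, 2177 and 2038 in controls and 1646, 1839.7 and 1875 in food-restricted libraries. The groups did not overlap, and food-restricted replicate 1 was the lowest library. The log2 fold change of Mcm3 was -0.25 ± 0.05 (SE), with a limma adjusted p of 0.00126. Mcm5 (ENSMUSG00000005410, GRCm38 chr8:75109569-75128439, plus strand), whose subunit sits with Mcm2 at the gate of the ring, had 1189, 1191 and 1146 in controls and 915, 996 and 1081 in food-restricted libraries. The controls of Mcm5 lay close together above all food-restricted values, which were spread more widely. Its log2 fold change was -0.24 ± 0.07 (SE) with a limma adjusted p of 0.0171. The call of Mcm5 was lost without control replicate 1 (limma adjusted p = 0.0962), control replicate 2 (0.0893), food-restricted replicate 1 (0.113) or food-restricted replicate 2 (0.0669).

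Mcm6 (ENSMUSG00000026355, GRCm38 chr1:128331590-128359664, minus strand), the subunit with the highest counts, had 3059, 3082 and 2880 in controls and 2468, 2649.7 and 2851 in food-restricted libraries. Food-restricted replicate 3 came within 1 SD of the lowest control, and the groups still did not overlap. The log2 fold change of Mcm6 was -0.18 ± 0.05 (SE) with a limma adjusted p of 0.0168. This call was lost without control replicate 1 (limma adjusted p = 0.128), control replicate 2 (0.13), food-restricted replicate 1 (0.117) or food-restricted replicate 2 (0.0762).

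The other subunits had smaller differences that did not pass. Mcm7 had normalized counts of 2538, 2568 and 2420 in controls and 2238, 2439 and 2265 in food-restricted libraries, with 1 food-restricted value inside the control range. Its log2 fold change was -0.12, with a 95% interval from -0.22 to -0.02 and a limma adjusted p of 0.205. Mcm2 and Mcm4 overlapped between the diets and had log2 fold changes of -0.10 each, with limma adjusted p-values of 0.426 and 0.394. Whether the subunits of the ring differ from each other in their response was not tested, and the intervals of the called and the other subunits overlap.

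**Figure D2:**
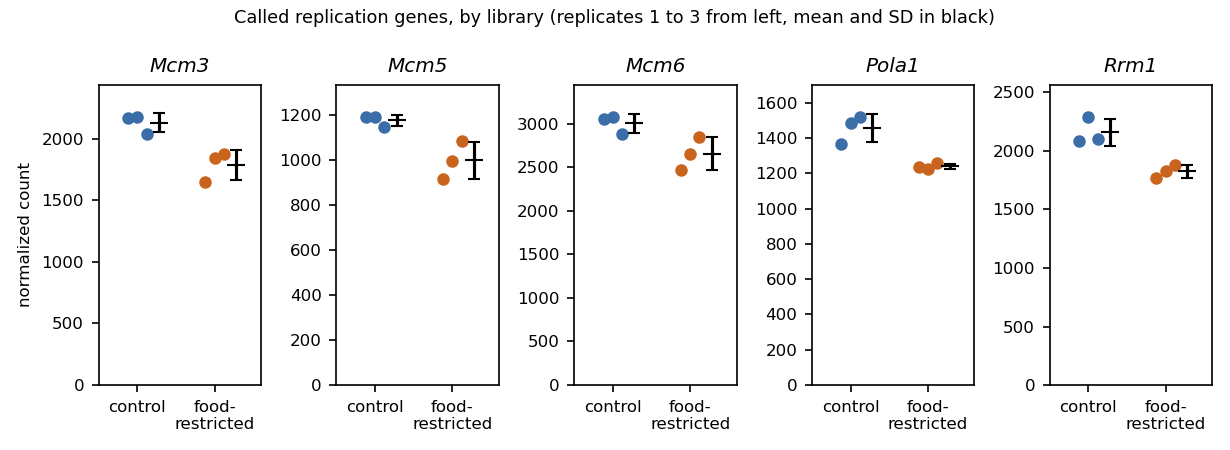
Normalized counts of Mcm3, Mcm5, Mcm6, Pola1 and Rrm1 in the 3 control (blue) and 3 food-restricted (orange) libraries, replicates 1 to 3 from left to right, with the mean and SD of each diet in black and each axis starting at 0. In all 5 genes the food-restricted libraries lie below the controls.

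The promoters of the called genes are shown because they differ in the letters that E2F factors bind, the regulators named above. Each window runs from 250 bases before to 50 bases after a RefSeq start site on GRCm38.p6, read 5′ to 3′ on the strand of the gene, and capitals mark matches to the E2F letters. The letters searched were TTTCCCGC, TTTCGCGC, TTTGCCGC and TTTGGCGC, on both strands (GCGGGAAA, GCGCGAAA, GCGGCAAA and GCGCCAAA), with overlapping matches kept. The windows are Mcm3 chr1:20820263-20820562 (minus), Mcm5 chr8:75109259-75109558 (plus), Mcm6 chr1:128359656-128359955 (minus), Pola1 chrX:93632106-93632405 (minus), Rrm1 chr7:102441445-102441744 (plus) and, as a helicase gene that was not called, Mcm7 chr5:138171834-138172133 (minus).
Mcm3: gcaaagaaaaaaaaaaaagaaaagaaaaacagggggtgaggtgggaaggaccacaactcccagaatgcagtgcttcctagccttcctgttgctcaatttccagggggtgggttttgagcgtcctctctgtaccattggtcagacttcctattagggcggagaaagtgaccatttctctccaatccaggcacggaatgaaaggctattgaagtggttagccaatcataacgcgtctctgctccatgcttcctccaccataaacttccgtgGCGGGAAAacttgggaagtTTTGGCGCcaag
Mcm5: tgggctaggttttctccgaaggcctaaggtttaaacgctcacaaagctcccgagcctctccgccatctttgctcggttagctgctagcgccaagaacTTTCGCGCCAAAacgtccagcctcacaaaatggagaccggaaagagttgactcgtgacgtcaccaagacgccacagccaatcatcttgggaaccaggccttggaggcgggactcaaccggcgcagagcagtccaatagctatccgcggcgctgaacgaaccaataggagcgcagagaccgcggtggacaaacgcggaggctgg
Mcm6: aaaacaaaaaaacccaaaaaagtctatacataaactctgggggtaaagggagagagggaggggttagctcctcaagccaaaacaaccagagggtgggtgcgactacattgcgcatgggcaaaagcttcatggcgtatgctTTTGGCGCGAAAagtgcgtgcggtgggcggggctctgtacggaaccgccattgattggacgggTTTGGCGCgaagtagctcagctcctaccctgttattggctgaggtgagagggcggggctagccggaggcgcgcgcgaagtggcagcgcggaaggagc
Pola1: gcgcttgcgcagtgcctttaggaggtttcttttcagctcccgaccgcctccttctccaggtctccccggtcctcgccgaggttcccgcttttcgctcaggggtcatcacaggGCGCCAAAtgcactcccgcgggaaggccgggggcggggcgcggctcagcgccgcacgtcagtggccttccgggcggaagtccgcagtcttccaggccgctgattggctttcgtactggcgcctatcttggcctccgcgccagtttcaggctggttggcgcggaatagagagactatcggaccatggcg
Rrm1: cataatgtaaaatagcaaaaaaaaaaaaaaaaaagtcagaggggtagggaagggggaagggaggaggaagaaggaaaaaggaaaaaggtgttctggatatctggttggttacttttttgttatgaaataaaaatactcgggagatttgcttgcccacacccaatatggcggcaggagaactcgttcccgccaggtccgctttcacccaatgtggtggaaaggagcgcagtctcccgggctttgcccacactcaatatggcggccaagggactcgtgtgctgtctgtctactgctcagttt
Mcm7: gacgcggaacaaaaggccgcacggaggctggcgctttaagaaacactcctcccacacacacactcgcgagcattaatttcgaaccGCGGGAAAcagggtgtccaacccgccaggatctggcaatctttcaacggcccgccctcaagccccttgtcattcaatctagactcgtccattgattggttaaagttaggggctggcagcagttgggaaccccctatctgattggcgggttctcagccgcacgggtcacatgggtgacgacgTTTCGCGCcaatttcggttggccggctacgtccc

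Counted from the start site, Mcm3 had a match 19 and another 38 bases downstream. Mcm6 had 3 matches, at -110, -106 and -47, of which the first pair overlap on opposite strands, and Mcm5 had 2 overlapping matches at -153 and -149. Pola1 had 1 match at -138, and the window shown for Mcm7 had matches at -165 and 16, although a second RefSeq window of Mcm7 had none. Rrm1 had none, which says only that these letters are not in this window.

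RefSeq windows were found for 35 of the 42 genes, 43 windows in all; Gins1, Gins2, Gins4, Mcm4, Pole, Prim2 and Rfc2 had none matched. A match to the E2F letters was present in 15 of the 43 windows (34.9%), each of a different gene, and in 744 of all 32851 mouse windows (2.26%). By complex, 4 of 5 helicase genes with a window had a match, as did 3 of 4 genes of polymerases delta and epsilon, 2 of 3 loading and firing factors and 2 of 6 origin recognition genes. None of 3 replication protein A genes and none of 2 ribonucleotide reductase genes had one. The letters CCAAT, or ATTGG on the other strand, were present in 25 of the 43 windows (58.1%) and in 37.4% of all windows, including all 6 shown here. Of the 15 genes with an E2F match 4 were called lower, with a median log2 fold change of -0.14. Of the 20 genes with a window and no match 1 was called, with a median of -0.11. Of all genes with a mean normalized count of at least 100, 5.37% were called lower. Calls among all mouse genes with a match were not counted. The difference between replication genes with and without a match was not tested.

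Ribonucleotide reductase, which makes deoxyribonucleotides from ribonucleotides, had the largest difference of the 10 summed complexes. Its summed normalized count was 2815, 2944 and 2859 in controls and 2405, 2418 and 2515 in food-restricted libraries, a difference of -14.9%, with no overlap. Rrm1, the large catalytic subunit (ENSMUSG00000030978, GRCm38 chr7:102441695-102469771, plus strand), had normalized counts of 2084, 2293 and 2100.5 in controls. The food-restricted libraries had 1771, 1831 and 1876, all lower and close together. The log2 fold change of Rrm1 was -0.24 ± 0.05 (SE) with a limma adjusted p of 0.00173, and the call was lost without control replicate 2 (0.0608). Rrm2, the small subunit whose level follows the cell cycle, had 731, 651 and 758 in controls and 634, 587 and 639 in food-restricted libraries. Its groups did not overlap either, but a log2 fold change of -0.20 with a 95% interval from -0.35 to -0.05 did not pass over all genes (limma adjusted p = 0.142).

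The other 9 genes of deoxyribonucleotide supply, such as thymidylate synthase, gave no call by limma or limma-voom. Of these 9 genes 2, Tyms and Dut, had an unadjusted p under 0.05, and both were lower. Tyms had normalized count means of 690 and 605 and a log2 fold change of -0.19, and Dut, the enzyme that keeps uracil out of DNA, had means of 1091 and 964 and a log2 fold change of -0.18. The median over the 9 genes was -0.14, with 7 below 0.

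Polymerase alpha-primase lays the RNA and DNA primer that starts each new strand. Only its catalytic subunit was called. Pola1 (ENSMUSG00000006678, GRCm38 chrX:93304767-93632155, minus strand) had normalized counts of 1368, 1485 and 1521 in controls and 1234, 1227 and 1256 in food-restricted libraries. The food-restricted libraries agreed within an SD of 15.2 and lay below every control. The log2 fold change was -0.23 ± 0.06 (SE) with a limma adjusted p of 0.00881. The call was lost without control replicate 2 (limma adjusted p = 0.0678), control replicate 3 (0.0895) or food-restricted replicate 2 (0.0555).

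Pola1 is X-linked, and the libraries differed in their sex-linked transcripts. Xist, expressed from the inactive X of females, had normalized counts of 17653 ± 840 in controls and 26601 ± 547 in food-restricted libraries, and Y-linked Ddx3y had 749 ± 58.3 and 336 ± 22.0 (SD, n = 3 each). Of 323 X-linked genes with a mean of at least 100, 22 were called lower and 6 higher, with a median log2 fold change of -0.05. Of all 10060 genes with such a mean, 540 (5.37%) were called lower, with a median of -0.005. Whether X-linked genes differ from the rest was not tested. The Y-linked genes Uty, Kdm5d and Eif2s3y were called lower as well, at -0.91, -0.83 and -0.85 on the log2 scale, and in all 5 sex-linked transcripts the diets did not overlap. The sex of the embryos and the diet therefore cannot be told apart here, for any of the 42 genes.

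The remaining alpha-primase subunits overlapped between the diets. Pola2, the regulatory subunit, had a log2 fold change of -0.11 with a 95% interval from -0.28 to 0.06. The primase subunits lay near 0, Prim1 at 0.01 and Prim2 at -0.0037 on the log2 scale, with intervals from -0.18 to 0.20 and from -0.18 to 0.18. These intervals do not show that primase was the same in both diets.

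Okazaki fragments, the short pieces of the lagging strand, are trimmed by the flap nuclease Fen1 and joined by DNA ligase 1. Lig1 had normalized counts of 1771, 1921 and 1777 in controls and 1635, 1648 and 1599.9 in food-restricted libraries. All food-restricted values were below all controls, with a log2 fold change of -0.16 ± 0.05 (SE) and a limma adjusted p of 0.0752. Fen1 had 522, 574 and 518 against 458, 482 and 491, again without overlap, and a log2 fold change of -0.17 with a limma adjusted p of 0.303. Neither gene was called by limma, although both had an unadjusted p under 0.05.

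The GINS complex and Cdc45 complete the active helicase. None of the 5 genes was called by limma or limma-voom and 0 had an unadjusted p under 0.05, while all 5 log2 fold changes were below 0 with a median of -0.11. Gins4, the most highly counted of them, had 352, 343 and 344 normalized counts in controls and 338, 322 and 304 in food-restricted libraries, which did not overlap. Cdc45 had 272, 289 and 294 against 264, 265 and 259, also without overlap, and a log2 fold change of -0.12 (limma adjusted p = 0.669). Gins3 had the lowest log2 fold change of all 42 genes, -0.33, on low and scattered counts of 124, 158 and 116 in controls and 127, 84.6 and 108 in food-restricted libraries. Its groups overlapped and its limma adjusted p was 0.325. Gins1 and Gins2 had log2 fold changes of -0.03 and -0.07. The exons of Gins2 share 2758 bases with Gse1 on the opposite strand, a gene with a mean normalized count of 1320 that was itself called higher (log2 fold change 0.29, limma adjusted p = 0.00118), so the value of Gins2 is uncertain.

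Cdc6, Cdt1 and Mcm10 load or activate the helicase, and none of the 3 was called by limma or limma-voom, with 1 at an unadjusted p under 0.05. Mcm10, a firing factor and the most highly counted, had normalized counts of 589, 611 and 529 in controls and 562, 499 and 561 in food-restricted libraries, which overlapped. Cdc6, the loading ATPase, had 340, 409 and 340 against 308, 311 and 297. The Cdc6 groups did not overlap, and the log2 fold change was -0.24 ± 0.10 (SE), with a limma adjusted p of 0.183. Cdt1 overlapped between the diets with a log2 fold change of -0.10.

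The origin recognition complex lay closest to 0. None of its 6 genes was called by limma or limma-voom, 0 had an unadjusted p under 0.05, and the median log2 fold change was -0.01. The sign of this median turned under trimmed-mean scaling, under upper-quartile scaling and without control replicate 3 or food-restricted replicate 2 or 3. Orc4, the subunit with the highest counts, had 712, 837 and 984 normalized counts in controls and 898, 831 and 778 in food-restricted libraries. The control libraries of Orc4 spread beyond the food-restricted ones on both sides, with a log2 fold change of -0.01 and a 95% interval from -0.16 to 0.15. Orc5 had the highest log2 fold change of the 42 genes, 0.07, with an interval from -0.14 to 0.28. Orc2 was the only subunit without overlap (618, 598 and 623 against 535, 574 and 577; log2 fold change -0.13), and Orc6, at -0.20 with an interval from -0.41 to 0.00, overlapped. Orc1 and Orc3 were at 0.03 and -0.01 on the log2 scale.

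Polymerases delta and epsilon, which extend the lagging and leading strands, gave no call by limma or limma-voom among 5 genes and 0 at an unadjusted p under 0.05. Pole, the catalytic subunit of epsilon and the most highly counted, had normalized counts of 1288, 1221 and 1247 in controls and 1141, 1268 and 1269 in food-restricted libraries. Food-restricted replicate 1 lay below the controls and the other two food-restricted libraries lay among them, for a log2 fold change of -0.03 with an interval from -0.15 to 0.09. Pold3, an accessory subunit of delta, had 861, 760 and 813 against 713, 758 and 730. The Pold3 groups did not overlap, by 2 normalized counts at the closest pair, and the log2 fold change was -0.14 (limma adjusted p = 0.323). The median of the 5 log2 fold changes was -0.03 and turned to 0.01 without control replicate 1. Pold1, the catalytic subunit of delta, Pold2 and Pole2 overlapped, with log2 fold changes of 0.02, -0.10 and -0.02. Of the other 3 polymerase subunits, Pold4, Pole3 and Pole4, 0 were called and 0 had an unadjusted p under 0.05.

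PCNA is the ring that tethers the polymerases, and the replication factor C subunits open and load it. None of the 6 genes was called by limma or limma-voom, with 1 at an unadjusted p under 0.05, and all 6 log2 fold changes were below 0 with a median of -0.10. Rfc1, the large subunit and the most highly counted, had 1922, 2173 and 1866 normalized counts in controls and 1981, 1800.2 and 1900.3 in food-restricted libraries. Its groups overlapped, with a log2 fold change of -0.07. Pcna had 544, 514 and 605 against 479, 516 and 530, with 2 food-restricted libraries inside the control range, and a log2 fold change of -0.12 with an interval from -0.29 to 0.04. A near copy of the gene, Pcna-ps2, has a mean normalized count of 109, and reads of Pcna could have been split with it. Rfc5 was the only one of the 6 without overlap (401, 447 and 403 against 327, 387 and 372), with a log2 fold change of -0.20 and a limma adjusted p of 0.265. Rfc2, Rfc3 and Rfc4 were at -0.13, -0.01 and -0.06 on the log2 scale.

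Replication protein A coats the exposed single strands. None of its 3 genes was called by limma or limma-voom, and 0 had an unadjusted p under 0.05. Rpa1, the large DNA-binding subunit, had 847, 842 and 864 normalized counts in controls and 841, 782 and 758 in food-restricted libraries. The groups of Rpa1 just missed each other, with a log2 fold change of -0.10 and an interval from -0.24 to 0.04. Rpa2 was at 0.05 and Rpa3 at -0.26 on the log2 scale, the latter with an interval from -0.57 to 0.05 and food-restricted values spread from 93.8 to 148 around controls of 137 to 140.

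**Figure D3:**
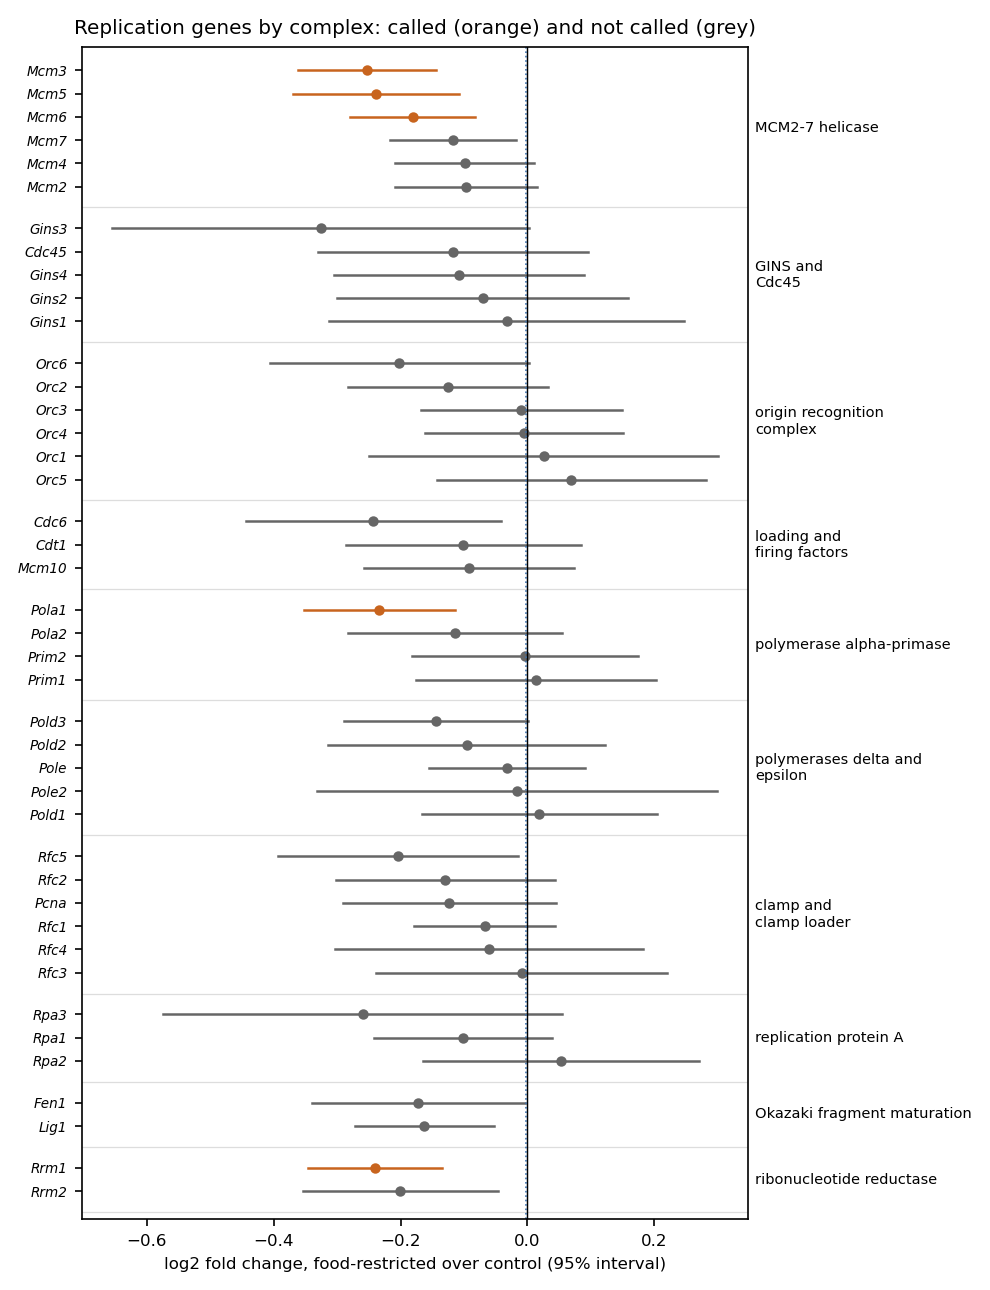
Log2 fold change, food-restricted over control, with the 95% interval of the limma fit for each of the 42 genes, grouped by complex; called genes are orange and the dotted line marks the median of all genes tested (-0.0028). The helicase, GINS and Cdc45, loading and firing, clamp, ribonucleotide reductase and Okazaki fragment genes all lie below 0. The origin recognition, alpha-primase, polymerase delta and epsilon, and replication protein A genes lie on both sides.

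Summed by complex, the normalized counts of all food-restricted libraries lay below those of all controls in 7 of the 10 complexes. The exceptions were the origin recognition complex, polymerases delta and epsilon, and replication protein A, whose sums differed by -3.19%, -4.13% and -5.41%. As CPM 5 complexes did not overlap, since the loading and firing factors and the clamp and its loader then overlapped as well. How often sums over other sets of genes of like size separate was not counted, so these counts have no background beside them. The other sums differed by -7.7% (GINS and Cdc45), -9.02% (loading and firing factors), -9.17% (polymerase alpha-primase), -6.27% (clamp and loader) and -10.8% (Okazaki fragment maturation). A sum is led by its most highly counted gene, and differences between complexes were not tested.

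**Figure D4:**
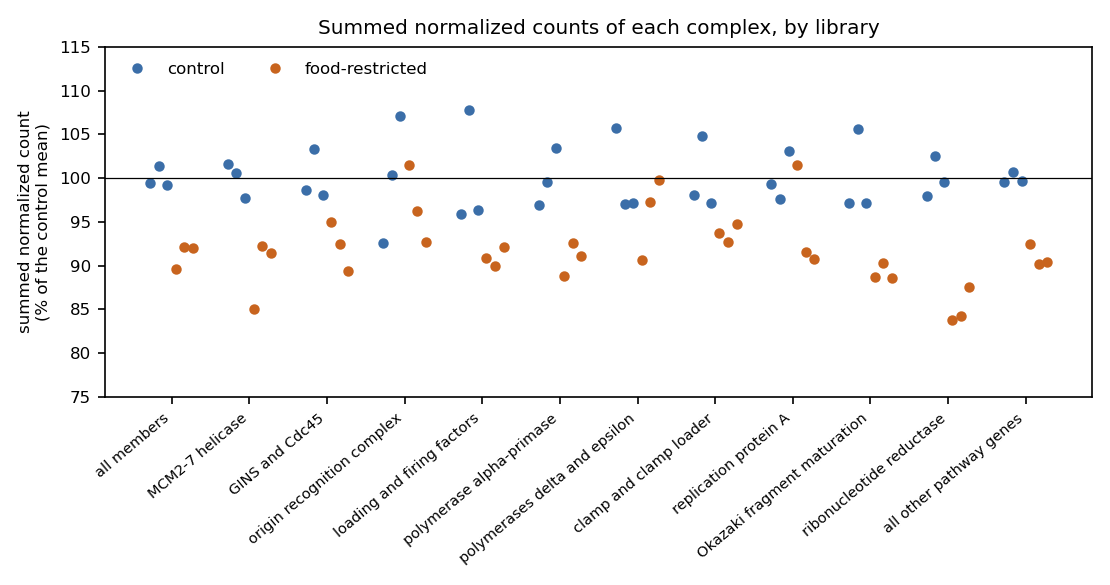
Summed normalized count of all 42 genes, of each complex and of 76 other genes of the pathway, per library, as a percentage of the control mean; blue points are controls and orange points food-restricted libraries, replicates 1 to 3 from left to right. The food-restricted points of the helicase and of ribonucleotide reductase lie below all controls, while those of the origin recognition complex lie among them.

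Levels of different genes were compared as CPM per kilobase of exon, averaged over the 6 libraries. The helicase had the highest median level of the 10 complexes, at 46.3 CPM per kilobase. Mcm6 had 53.4 and Mcm2 had 21.3 CPM per kilobase, a ratio of 2.51. Mcm3, Mcm4, Mcm6 and Mcm7 lay at control means of 47.8 to 56.1 CPM per kilobase, and Mcm2 and Mcm5 at 21.7 ± 1.09 and 25.6 ± 0.556 (SD, n = 3). Among the former, Mcm3 and Mcm7 had the same control mean level of 49.3 CPM per kilobase and do not differ beyond their SDs of 1.71 and 1.4.

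The origin recognition genes had lower levels, from 13.4 CPM per kilobase for Orc2 to 4.04 for Orc1. In the GINS complex Gins4 had 21.8 and Gins3 3.88 CPM per kilobase, a ratio of 5.62. Rfc1 stood at 28.4 and Rfc3 at 5.86 CPM per kilobase, in polymerases delta and epsilon Pold3 stood at 14.8 and Pole2 at 3.53, and in alpha-primase Pola1 stood at 13.5 and Pola2 at 5.47. Lig1 had 35.6 and Fen1 18.4, while Rrm2 at 21.2 and Rrm1 at 15.9 CPM per kilobase were nearer to each other. Exon length was the union of annotated exons, so a gene with long rarely used exons appears lower per kilobase than its main transcript would. This union was 6956 bases for Mcm2 against 3589 to 4666 for the other helicase subunits. For Rrm1 it was 11012 bases against 2771 for Rrm2, whose control means were 188 and 62.1 CPM before division by length.

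**Figure D5:**
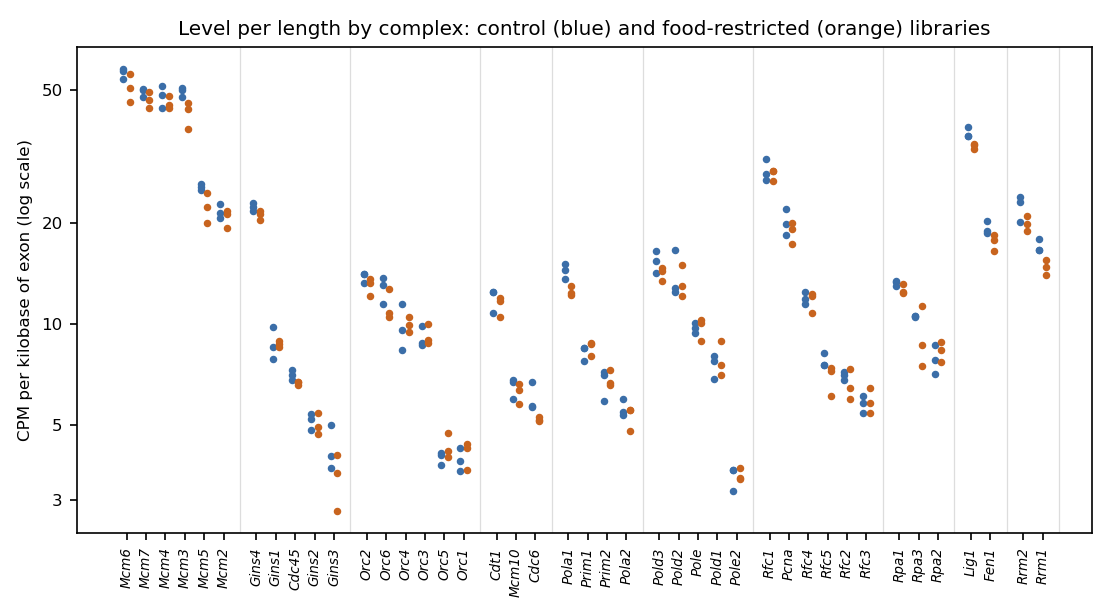
CPM per kilobase of exon (log scale) for each gene in the control (blue) and food-restricted (orange) libraries, grouped by complex and ordered by mean level. The range within a complex, such as 21.8 to 3.88 CPM per kilobase in GINS and Cdc45, exceeds the difference between the diets in each complex shown.

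Of the 42 genes 13 share exon bases with another tested gene, 12 of them with a gene on the opposite strand, and whether reads were counted by strand is not stated in the sources used here. None of the 5 called genes is among the 13. Fen1 shares 1909 bases with Gm10143 (mean normalized count 13.0), Orc2 shares 1150 with Nif3l1 (296), Mcm7 shares 321 with Ap4m1 (713) and Rfc4 shares 194 with the far more highly counted Eif4a2 (6890). Rfc5 shares 499 bases with Wsb2 (407), and Lig1, called by limma-voom, shares 247 with Zswim9 (372).

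Outside the 42 genes, 76 other genes of the pathway in 9 lists were counted, and 11 (14.5%) were called lower by limma, against the 2.5% of all genes tested and 5.37% of genes with a mean of at least 100. These lists too were chosen with earlier results of the data known, so the shares describe them and do not test them. None of the 76 was called higher by limma or limma-voom. An unadjusted p under 0.05, in either direction, was found for 24 of the 76, and the share over all genes was not counted. Limma-voom also called 11 lower, with Top2b in place of Cdk1. Over the 76 genes the median log2 fold change was -0.10, with 57 below 0, and the count of calls was 8, 6 and 7 without control replicates 1 to 3 and 9, 7 and 7 without food-restricted replicates 1 to 3. Top2a, the topoisomerase that untangles copied chromosomes, had normalized counts of 5674, 5934 and 5672 in controls and 4732, 4354 and 4246 in food-restricted libraries. Its groups stood well apart, with a log2 fold change of -0.38 and a limma adjusted p of 4.31e-10. Top1, which relaxes the DNA ahead of the fork, had 6043, 6138 and 6030.1 against 5348, 4854 and 4993, a log2 fold change of -0.26 (limma adjusted p = 2.72e-06).

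Among chromatin assembly genes the histone chaperone Nasp had a log2 fold change of -0.25 (means 5949.8 ± 30.9 and 5022 ± 177, limma adjusted p = 7.71e-06) and the remodeller Hells one of -0.25 (1787 ± 76.5 and 1502 ± 25.7, limma adjusted p = 0.00192). Of 11 regulators of licensing and firing only Cdc7, the kinase that activates the loaded helicase, was called. Cdc7 had 492, 556 and 501 normalized counts in controls and 391, 366 and 371 in food-restricted libraries, without overlap, and a log2 fold change of -0.46 (limma adjusted p = 0.000313). Top1, Top2a, Nasp, Hells and Cdc7 were called whichever library was left out.

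Of 8 S phase cyclins, kinases and their regulators 3 were called lower, where 5.37% of all genes with a mean of at least 100 were. Fbxo5, an inhibitor of the anaphase-promoting complex, had a log2 fold change of -0.44 (353 ± 15.3 and 262 ± 34.9, limma adjusted p = 0.00525), and its call was lost without food-restricted replicate 2 (0.115). Ccna2, the cyclin of S phase, was at -0.27 (809 ± 45.4 and 668 ± 6.93, limma adjusted p = 0.0132) and Cdk1 at -0.33 (476 ± 4.14 and 382 ± 54.9, limma adjusted p = 0.0262). Ccna2 was called in 2 and Cdk1 in 2 of the 6 fits that leave out 1 library, with limma adjusted p-values up to 0.102 without control replicate 2 and 0.252 without food-restricted replicate 1. Cdk1 was not called by limma-voom either (adjusted p = 0.0772).

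At the fork, Clspn, a mediator of the replication checkpoint, was at -0.23 on the log2 scale (limma adjusted p = 0.025), the alternative clamp loader subunit Chtf8 at -0.18 (0.0402) and the cohesin acetyltransferase Esco2 at -0.43 (0.0106). Clspn was called only without food-restricted replicate 1 and Chtf8 only without control replicate 3 among the fits that leave out 1 library, with adjusted p-values up to 0.209 without food-restricted replicate 3 and 0.187 without control replicate 1. The call of Chtf8 was also lost under trimmed-mean scaling (limma adjusted p = 0.0575), upper-quartile scaling (0.0591), the replicate block (0.0783) and removal of the length trend (0.0688). Esco2 was called in 3 of the 6 fits that leave out 1 library, with a limma adjusted p of 0.177 without food-restricted replicate 3.

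None of 13 E2F and pocket protein genes was called by limma or limma-voom. An unadjusted p under 0.05 was found for 4 of them, E2f1, E2f2, E2f3 and Tfdp2, a count without a background beside it. The median log2 fold change of the 13 genes was -0.10, with 9 below 0 and 4 above. E2f2, an activating E2F, had mean normalized counts of 207 and 160 and a log2 fold change of -0.36 (limma adjusted p = 0.0943). E2f1 and E2f3, the other activators, were at -0.27 and -0.14, and Tfdp2, a dimerization partner, was at 0.13. The proliferation gene Mki67, in none of the lists, had normalized counts of 11783 ± 136 in controls and 9455 ± 77.8 in food-restricted libraries (SD, n = 3 each). Its log2 fold change was -0.32 (limma adjusted p = 3.97e-11).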

How the data were processed

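RNA-seq values of 6 libraries were used. The submitters' processing notes name DESeq2 1.22.1, HTSeq 0.6.0, TopHat2 2.1.1, cutadapt 1.18 and bcl2fastq 2.18.0.12, and build GRCm38; a stranded total RNA kit was used, per the labels' protocols. The authors deposited whole-number read counts per gene, normalized counts (other values: the count divided by a size factor of its library) for genes with a summed count of at least 10, and their own log2 fold changes, p-values and adjusted p-values. Size factors were 1.08, 0.934 and 0.933 for controls and 0.568, 1.27 and 1.53 for food-restricted libraries.

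The principal test was limma 3.58.1 (R 4.3.3) on log2(normalized count + 1), with diet as the only term and empirical Bayes with a trend, two-sided. The count columns hold marks for missing cells, all in rows outside the genes tested, and were not declared as counts. For that reason edgeR and DESeq2 were not run, while limma-voom used the read counts of the genes tested. The test was checked on simulated data, with a spread that was set and not estimated from these libraries. The changes planted there were larger than those of the called replication genes, so the check does not cover differences of their size. CPM used the deposited counts and their totals; lengths and overlaps used GENCODE exons on GRCm38. Libraries of the same diet differed by more than counting error (chi-square per gene 2.87 to 9.8). The members and gene lists were chosen with earlier results of these data known. Library values are given for called members and for the most highly counted member of each other complex, and other called genes are named, at most the 4 of smallest p per list; Mcm7, Rrm2, Cdc6, Gins3, Cdc45, Orc2, Orc5, Pold3, Pcna, Rfc5, Fen1, Rpa3, Tyms, Dut, E2f1, E2f2, E2f3 and Tfdp2 were singled out after their values were seen. Mki67, Gm42418 and the sex-linked transcripts were in none of the gene lists. Alternative scalings, pseudocounts, a filter, limma-voom, a replicate term, a length correction and leaving out each library were tried.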

Additional observations from a re-analysis of the deposited data

How the results depend on the processing

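The 5 called genes were called under trimmed-mean and upper-quartile scaling, pseudocounts of 0.5 and 5, a filter of at least 1 CPM in 3 libraries, limma-voom and removal of the length trend; limma-voom called 6. The replicate block gave 5 as well. Same-numbered libraries did not deviate together (correlations of -0.0867, 0.0138 and -0.0361), but with 3 libraries per diet this cannot exclude a pairing. Leaving out 1 library gave 1 to 5 calls lower, 0 higher and a median from -0.13 to -0.10, and all genes gave 564 to 1357 calls against 1193. edgeR and DESeq2 alternatives were not run. Uncalled members near 0 changed sign. With the length trend removed Gins1 was at 0.0064 and Rfc3 at 0.0001, with trimmed-mean scaling Orc4 at 0.0025 and Prim2 at 0.0045, and with upper-quartile scaling Orc3 at 0.003, Orc4 at 0.0067, Prim2 at 0.0087 and Rfc3 at 0.0031 on the log2 scale; the cause was not tested. Without 1 library Gins1 ranged from -0.1061 to 0.0459, Orc1 from -0.0407 to 0.1042, Orc3 from -0.0831 to 0.0459, Orc4 from -0.1225 to 0.111, Orc5 from -0.0145 to 0.1181, Pold1 from -0.062 to 0.0755, Pold2 from -0.1672 to 0.0287, Pole from -0.0573 to 0.0194, Pole2 from -0.0867 to 0.0268, Prim1 from -0.0303 to 0.0453, Prim2 from -0.0841 to 0.0409, Rfc3 from -0.0741 to 0.0622, Rfc4 from -0.0996 to 0.0122 and Rpa2 from -0.0079 to 0.1235. Counts of 70 to 4348 reads per gene and library limit what differences of this size can be shown.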
